A study of Mus musculus with 36 samples.

Results

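The genes described here make cholesterol, sense its level in the cell, or move it between membranes. They were chosen by name, as 29 of the 55487 genes of the count table, and comprised 18 synthesis enzymes, 5 regulators and 6 transport genes. All 29 passed the filter on low counts in every comparison. The libraries came from dorsal root ganglion (DRG), which holds the cell bodies of sensory neurons, and from dorsal spinal cord, where many of their central axons end. The mice were female, either wild type (WT) or knockout (KO) by the genotype field of the labels. They were either naive or had a spared nerve injury (SNI), in which some branches of the sciatic nerve are cut and another is left intact. Each tissue had 5 naive WT, 5 naive KO, 4 SNI WT and 4 SNI KO libraries. The control mice were naive and not sham operated as far as the labels say. Strain, age, the time after injury, the type of deletion and any pooling of ganglia were not stated in the labels.

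Cells build cholesterol from acetyl-CoA, first through mevalonate and the isoprenoid farnesyl diphosphate, then through squalene, whose closure gives lanosterol, the first sterol. When sterols run low, the escort protein SCAP carries SREBP to the Golgi, where it is cut and released as a transcription factor for most of these enzymes, and INSIG proteins hold it back when sterols are plentiful. In nervous tissue cholesterol is made locally, much of it by myelinating glia, and excess sterol leaves cells through ABC transporters such as ABCA1, whose gene is induced by the oxysterol-sensing LXR receptors.

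The libraries held 21.34 to 27.27 M estimated reads each. The naive DRG libraries A2 and A4, titled wild type but given as knockout in the genotype field, were kept as KO. Sensory neuron markers summed to 2739 to 4634 CPM (read counts scaled by library size) in DRG and 82.8 to 175.1 CPM in cord, and oligodendrocyte markers to 22440 to 29460 CPM in cord. Naive DRG libraries differed in makeup by genotype: blood markers summed to 736.9 to 3540 CPM in WT, with C1 highest, against 190.8 to 609.6 CPM in KO, and general neuron markers to 7169 to 10080 against 10500 to 12710 CPM. Neutrophil marker sums were 64.38 to 374.1 CPM in WT and 15.98 to 60.13 in KO. Macrophage marker sums were 149.3 to 276.8 and 101.8 to 172.3, and those of fibroblasts 2133 to 3874 and 1940 to 2425. Astrocyte marker sums ran the other way, at 118.1 to 126.6 and 136.4 to 159.8 CPM. The labels do not say whether libraries were from separate animals, so the p values measure the spread between these libraries, which may be technical. In RNA of whole tissue, fewer cells of a type and less RNA per cell cannot be told apart. Values after ± are standard deviations for CPM and standard errors for log2 fold changes, and called means an adjusted p under 0.05, over all genes tested, in edgeR's quasi-likelihood test. Values of a group are listed in the order of the library names.

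Promoter sequence was taken from RefSeq (build GRCm38.p6), whose table held 23 of the 29 genes by symbol. The first pair of windows belongs to the 2 genes with the largest injury changes, Hsd17b7 and Abca1, and the next 2 to an enzyme that rose less (Ebp) and to the most abundant enzyme gene, which was not called in any comparison within a tissue (Hmgcs1). Each is written 5′ to 3′ along the gene's strand and ends at the base before the RefSeq start, or for Hsd17b7 before the longer GENCODE gene. Capitals mark the E-box CACGTG, the CCAAT box (read as ATTGG on the other strand) and the sterol response element TCACNCCAC.
Hsd17b7 (chr1:169969242-169969455, minus strand): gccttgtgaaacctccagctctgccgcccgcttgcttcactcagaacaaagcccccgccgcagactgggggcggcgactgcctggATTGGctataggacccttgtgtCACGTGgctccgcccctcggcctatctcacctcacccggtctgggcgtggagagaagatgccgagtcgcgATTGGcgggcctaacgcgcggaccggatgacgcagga
Abca1 (chr4:53159896-53160145, minus strand): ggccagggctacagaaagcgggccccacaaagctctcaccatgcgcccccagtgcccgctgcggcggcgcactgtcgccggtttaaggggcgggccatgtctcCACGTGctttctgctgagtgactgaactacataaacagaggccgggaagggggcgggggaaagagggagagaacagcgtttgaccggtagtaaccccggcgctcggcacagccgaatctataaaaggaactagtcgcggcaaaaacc
Ebp (chrX:8193513-8193762, minus strand): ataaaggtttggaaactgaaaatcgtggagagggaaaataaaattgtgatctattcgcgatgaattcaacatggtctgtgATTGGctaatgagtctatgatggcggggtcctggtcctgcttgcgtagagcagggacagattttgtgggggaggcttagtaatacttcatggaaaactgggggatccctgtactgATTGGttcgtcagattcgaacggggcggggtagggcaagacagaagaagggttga
Hmgcs1 (chr13:119690101-119690350, plus strand): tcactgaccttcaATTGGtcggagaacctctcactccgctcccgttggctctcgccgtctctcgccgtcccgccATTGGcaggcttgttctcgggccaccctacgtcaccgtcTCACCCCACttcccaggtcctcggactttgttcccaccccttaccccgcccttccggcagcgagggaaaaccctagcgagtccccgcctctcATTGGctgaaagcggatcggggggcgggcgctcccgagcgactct
The E-box began 143 bases before the RefSeq start of Hsd17b7 and 147 bases before that of Abca1, and the sterol response element 137 bases before that of Hmgcs1. In the printed windows no 2 matches overlapped.

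In all 32851 promoter windows of the table, the 250 bases before the start were searched on both strands. The CCAAT box occurred in 33.8%, the E-box in 6.02% and the sterol response element in 1.05%. The AP-1 site TGANTCA occurred in 6.75% and the cyclic AMP response element TGACGTCA in 1.55%. Among the 23 genes with a window, 20 held a CCAAT box, 6 an E-box (Hsd17b7, Sc5d, Dhcr7, Insig1, Scap and Abca1), 2 an AP-1 site (Msmo1 and Dhcr7), 1 the sterol response element (Hmgcs1) and 0 the cyclic AMP response element. The 23 genes had 31 windows in all, since some have several starts, and a match describes letters only.

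In naive WT tissue the genes spanned a wide range of levels. Per kilobase of transcript, Hmgcs1, whose product makes HMG-CoA, was highest in DRG (259 ± 14.5 CPM per kb) and in cord (194 ± 7.98). Fdps, the farnesyl diphosphate synthase gene, followed in DRG at 158 ± 6.18 and Msmo1, a sterol C4 demethylation enzyme gene, at 122 ± 6.14, while in cord Msmo1 (82.3 ± 4.72) preceded Fdps (63.5 ± 2.80). Their library ranges did not overlap in either tissue. Lowest in both tissues was Npc1l1, best known for sterol uptake in the intestine, at 0.284 ± 0.0823 CPM per kb in DRG and 0.394 ± 0.0468 in cord. Next above it were the efflux transporter Abcg1 in DRG (6.30 ± 1.49) and Abca1 in cord (3.75 ± 0.393). Part of the Fdps transcript overlaps the gene Gm43738 on the same strand, and Mvd lies wholly within the read-through gene Gm20388, so both counts are uncertain.

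Synthesis enzymes were more abundant in naive DRG and regulators in naive cord. With 76.7% of all genes called between the tissues in WT and 74.8% in KO, a call alone says little here; 25 and 27 of the 29 members were called. In WT, 14 of the 18 enzymes were called higher in DRG and 1 lower, and in KO 16 and 1. The 5 regulators (Insig1, Insig2, Srebf1, Srebf2 and Scap) were all called lower in DRG in both genotypes. On a scale shared by both tissues, Fdps stood at 190 ± 6.54 CPM in DRG and 80.9 ± 3.47 in cord (n = 5 each, log2 fold change 1.23 ± 0.050, adjusted p = 5.74e-22), and Tm7sf2, a sterol C14 reductase gene, at 46.2 ± 3.95 and 21.6 ± 1.14 (1.10 ± 0.063). Cyp51, the lanosterol 14-alpha-demethylase gene, was the 1 enzyme called lower in DRG, with 123 ± 9.57 CPM in DRG and 185 ± 14.1 in cord (-0.59 ± 0.068, adjusted p = 1.37e-09). Dhcr7 (53.04 against 58.55 CPM) and Mvk (28.02 against 28.34) also had lower means in DRG of WT, not called.

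Transport genes split between the tissues. Abca1 had 144 ± 12.2 CPM in naive WT DRG and 39.6 ± 4.12 in cord (1.86 ± 0.083, adjusted p = 1.1e-20). Npc1, which exports cholesterol from lysosomes, had 38.9 ± 3.26 and 112 ± 8.18 CPM (-1.52 ± 0.066, adjusted p = 5.49e-21). The regulators Scap (39.5 ± 4.99 in DRG, 70.7 ± 5.06 in cord) and Srebf2, the main transcription factor gene of the pathway (114 ± 20.7 and 198 ± 7.37), were lower in DRG by log2 fold changes of -0.84 and -0.79.

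**Figure D1:**
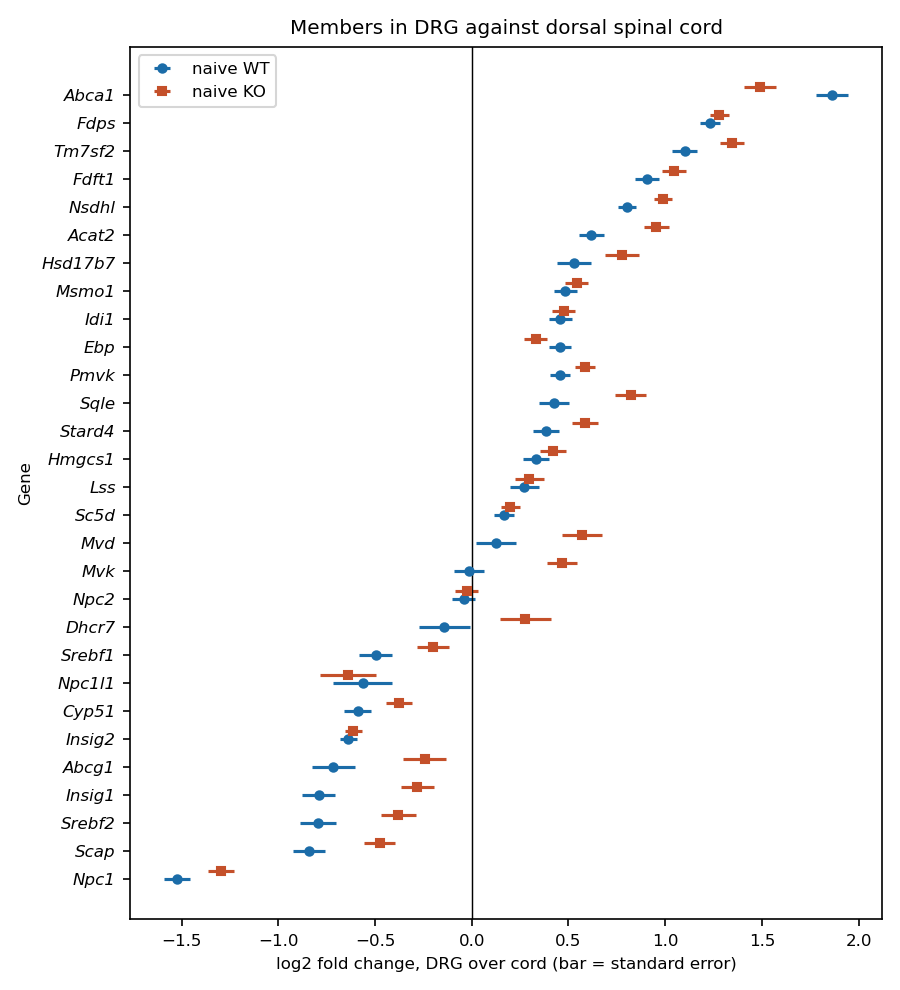
Log2 fold change of each of the 29 genes between naive DRG and naive dorsal spinal cord, with circles for WT, squares for KO and bars for the standard error (5 libraries a group). Abca1 and Fdps lie at the upper end at 1.86 and 1.23 in WT, and Npc1 at the lower end at -1.52.

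Nerve injury changed a few of these genes strongly in DRG and left the set as a whole near the middle of all genes. In WT DRG 5 genes rose (Hsd17b7, Abca1, Mvk, Ebp, Npc2) and 3 fell (Stard4, Msmo1, Insig2), that is 8 of 29 against 24.9% of all 19496 genes tested. In KO DRG 6 rose (Hsd17b7, Abca1, Ebp, Mvk, Nsdhl, Acat2) and 3 fell (Abcg1, Insig2, Stard4), 9 of 29 against 28.5%. The median log2 fold change was -0.015 over the members and -0.011 over all genes in WT, and 0.005 and 0.012 in KO. Both counts of called members lie near their backgrounds, while Hsd17b7 and Abca1 changed far more than the other 6 called members of WT, which ranged from -0.33 to 0.32.

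Hsd17b7 (chromosome 1, 169949535 to 169969241, minus strand) encodes the 3-keto-sterol reductase that completes removal of the C4 methyl groups and that can also reduce estrone. Naive WT DRG libraries had 57.6, 54.5, 55.9, 54.9 and 51.5 CPM, and SNI libraries 260.7, 187.0, 272.2 and 205.1 CPM (E1, E3, F1, F3). In KO the naive values were 62.2, 57.7, 61.8, 61.3 and 56.8, and the SNI values 281.8, 272.9, 303.4 and 279.2 CPM. Every injured library lay far above every naive one in both genotypes. The rise was 4.22-fold in WT (log2 2.08 ± 0.088, adjusted p = 2.83e-12) and 4.74-fold in KO (2.25 ± 0.088, adjusted p = 7.54e-13). In cord the same gene had 35.9 ± 1.74 CPM in naive and 42.7 ± 7.18 in SNI WT libraries, and 33.4 ± 1.26 and 40.2 ± 5.86 in KO, which was not called in either genotype (adjusted p = 0.278 and 0.181). The 2 enzyme genes that act with it in C4 demethylation had smaller changes in injured WT DRG: Msmo1 was 249.6 ± 12.6 CPM in naive and 220.2 ± 22.2 in SNI WT libraries, and Nsdhl was 92.3 ± 1.87 and 97.4 ± 3.04.

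Abca1 (chromosome 4, 53030787 to 53159895, minus strand), the transporter that hands cholesterol to apolipoproteins outside the cell, rose in both tissues. Naive WT DRG libraries had 149.9, 146.3, 158.5, 159.0 and 128.8 CPM and SNI libraries 515.1, 365.7, 505.1 and 395.2. In KO DRG it went from 131.7, 138.6, 141.4, 145.3 and 143.3 to 502.2, 509.9, 507.1 and 521.6 CPM. The groups did not overlap, and the 4 injured KO libraries lay closer together than the 4 injured WT libraries. The rise was 3-fold in WT (1.58 ± 0.089, adjusted p = 1.67e-10) and 3.64-fold in KO (1.86 ± 0.089, adjusted p = 1.4e-11).

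Within injured WT DRG, E3 and F3 had the lower values of both genes. The same libraries had the higher macrophage marker sums (724.6 and 652.2 CPM against 419.2 in E1 and 525.0 in F1) and the lower neuron marker sums (8092 and 7254 against 10340 and 9400). Over the groups, the summed macrophage markers (10 of 10 above 0) went from 149.3 to 276.8 CPM in naive WT DRG to 419.2 to 724.6 after injury, and their part in the Abca1 and Hsd17b7 results was not tested.

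In cord Abca1 was the 1 member that rose after injury in each genotype. Naive WT libraries had 44.9, 33.6, 38.3, 38.1 and 37.7 CPM and SNI libraries 65.7, 69.4, 56.1 and 65.5 (0.74 ± 0.077, adjusted p = 2e-06). Naive KO libraries had 47.3, 50.4, 43.8, 49.2 and 47.2 CPM and SNI libraries 87.2, 76.9, 71.6 and 69.5 (0.68 ± 0.076, adjusted p = 4e-06). All injured libraries again lay above all naive ones of their genotype. Macrophage and microglia markers summed to 194.9 to 228.1 CPM in naive and 424.2 to 470.9 in SNI WT cord. Their part was not tested.

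**Figure D2:**
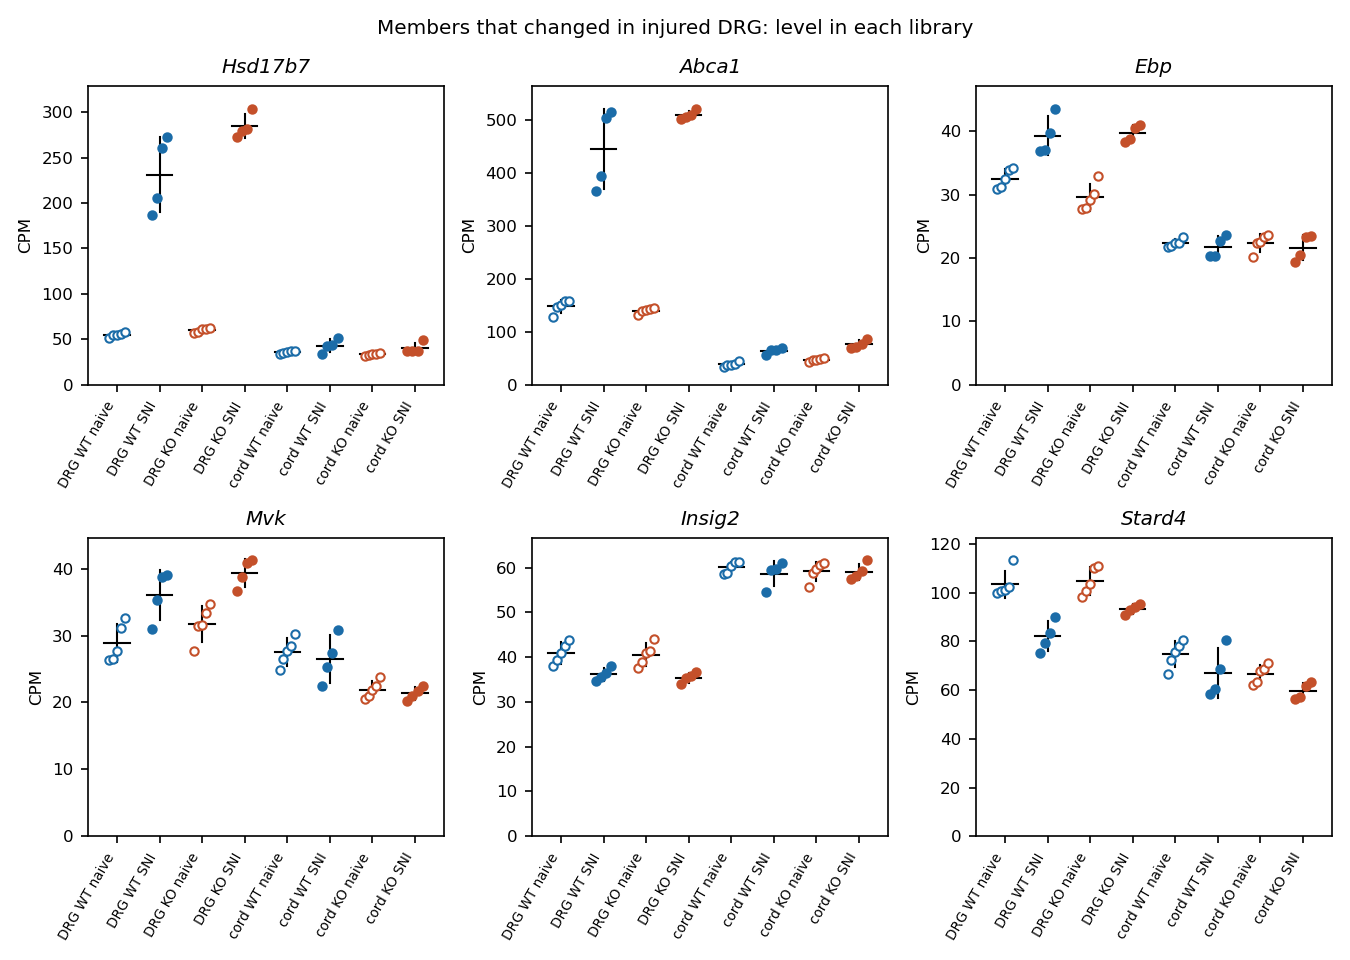
CPM of 6 genes in each of the 36 libraries by group, open points for naive and filled for SNI, blue for WT and orange for KO; the horizontal line is the group mean and the vertical line 1 SD. Hsd17b7 and Abca1 rise from means of 54.9 and 148.5 CPM to 231.3 and 445.3 CPM in WT DRG, while Stard4 and Insig2 fall in injured DRG.

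Other enzymes rose less in injured DRG. Ebp, the sterol delta8-delta7 isomerase gene, had 30.9, 33.9, 32.5, 31.2 and 34.3 CPM in naive and 37.0, 43.5, 37.0 and 39.7 in SNI WT libraries (0.27 ± 0.061, adjusted p = 0.00269). In KO its naive values were 30.2, 32.9, 29.1, 28.0 and 27.8 and its SNI values 41.1, 38.8, 38.3 and 40.5 CPM (0.42 ± 0.061, adjusted p = 3.68e-05). No library of one condition reached the other in either genotype. EBP is related to the sterol-binding protein Tmem97. Mvk, mevalonate kinase, had 26.6, 27.8, 32.6, 31.2 and 26.4 CPM in naive and 39.1, 35.3, 38.7 and 31.0 in SNI WT libraries (0.32 ± 0.082, adjusted p = 0.00745), with F3 inside the naive range. In KO it went from 33.4, 27.7, 31.4, 34.7 and 31.6 to 40.9, 41.2, 38.7 and 36.7 CPM without overlap (0.31 ± 0.082, adjusted p = 0.0079).

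Npc2 carries cholesterol inside lysosomes to Npc1. It had 116.9, 139.4, 110.4, 110.0 and 132.7 CPM in naive WT DRG and 132.5, 159.2, 133.9 and 147.6 after injury (0.23 ± 0.074, adjusted p = 0.0256), with A3 and C1 inside the injured range, and in KO 111.9 ± 4.35 and 125.8 ± 5.25 CPM, which was not called. Nsdhl, the C4 sterol decarboxylase gene, rose in KO from 99.3, 94.9, 89.4, 87.8 and 89.1 to 105.1, 102.2, 101.6 and 104.3 CPM (0.17 ± 0.045, adjusted p = 0.00934). The KO groups did not overlap for Nsdhl. Acat2, cytosolic acetoacetyl-CoA thiolase, rose in KO from 179.3 ± 11 to 206.8 ± 7.84 CPM (0.21 ± 0.073, adjusted p = 0.0423) and was 157.9 ± 11 and 167.0 ± 19.6 in WT, not called. The Acat2 call in KO was lost under 10 of 17 alternatives.

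Stard4, a soluble carrier that moves cholesterol to the endoplasmic reticulum, fell after injury. Naive WT DRG libraries had 100.7, 101.0, 99.96, 102.4 and 113.2 CPM and SNI libraries 83.5, 75.4, 90.0 and 79.4 (-0.33 ± 0.058, adjusted p = 0.00025). In KO the values were 110.9, 103.6, 110.2, 100.5 and 98.4 against 93.0, 95.2, 90.8 and 94.2 CPM (-0.17 ± 0.058, adjusted p = 0.0369). Both falls were without overlap. Insig2, which retains SCAP in the endoplasmic reticulum, had 41.0, 39.3, 42.6, 43.9 and 37.9 CPM in naive and 34.7, 36.4, 38.0 and 35.5 in SNI WT libraries (-0.18 ± 0.056, adjusted p = 0.0238), and 37.6, 44.1, 41.4, 38.8 and 40.9 against 33.9, 36.6, 35.9 and 35.3 in KO (-0.20 ± 0.056, adjusted p = 0.0129). F1 alone of the injured WT libraries lay inside the naive range. Msmo1 in WT had 241.5, 243.9, 237.4, 258.3 and 267.1 CPM in naive and 218.8, 251.3, 199.2 and 211.7 in SNI libraries, with E3 inside the naive range (-0.18 ± 0.061, adjusted p = 0.0357). The Msmo1 call was lost under 11 of 17 alternatives.

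Abcg1, an efflux transporter gene for cholesterol to lipoproteins, fell in KO DRG from 55.5, 45.03, 48.9, 49.8 and 49.2 to 34.7, 35.1, 32.9 and 29.2 CPM without overlap (-0.59 ± 0.157, adjusted p = 0.00801). In WT it was 36.8 ± 8.71 and 31.6 ± 6.72 CPM and was not called. The difference between the genotypes was not called for any member: the interaction of genotype and injury in DRG had 0 of 29 called by edgeR, DESeq2 or limma, against 0.0256% of all genes by edgeR, and 1 member, Abca1, had an unadjusted p under 0.05 (0.0378, interaction 0.28 ± 0.125). In cord the interaction had 0 of 29 called by the same 3 tools and 0 of 18843 genes by edgeR (0%), with 3 members at an unadjusted p under 0.05, namely Npc1l1, Npc1 and Lss.

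**Figure D3:**
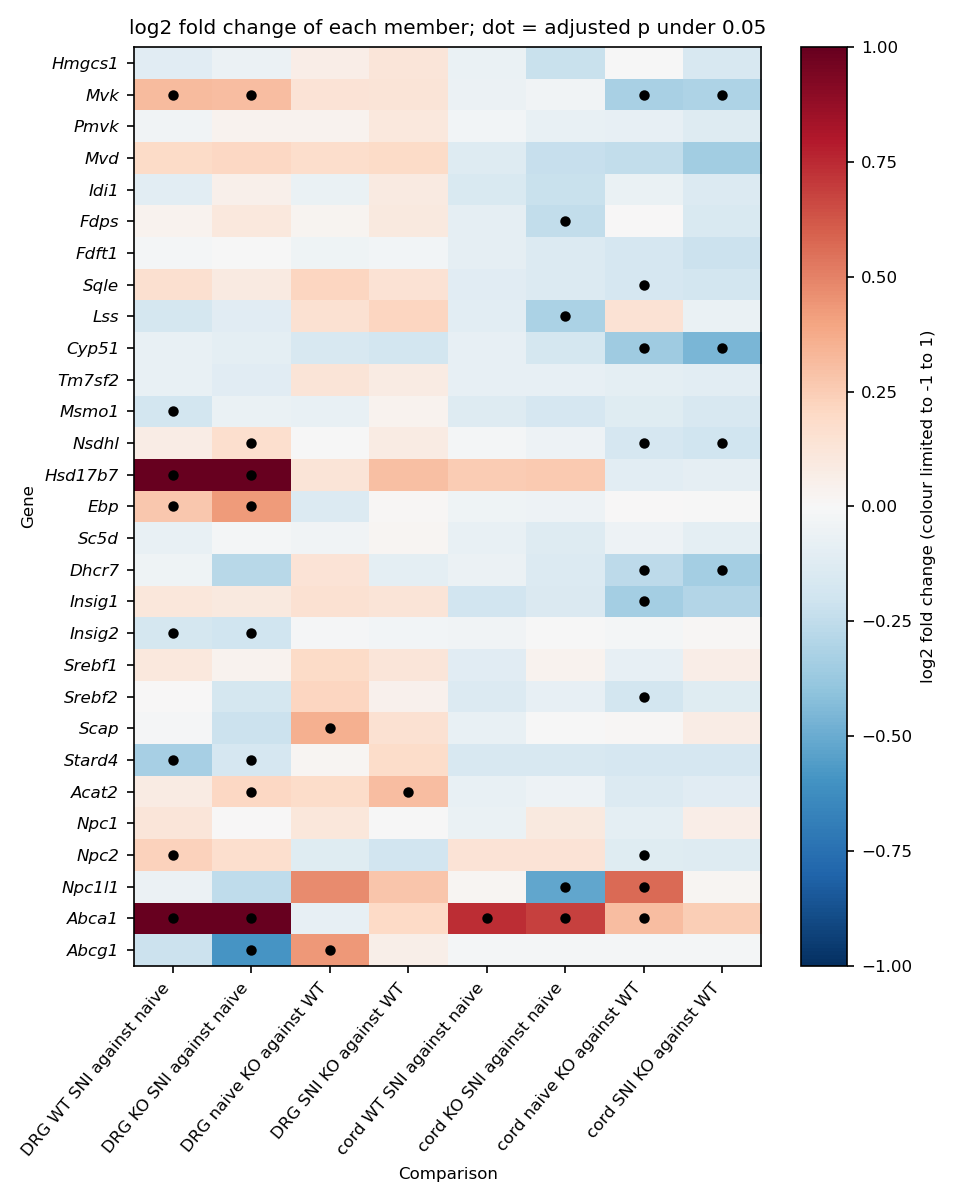
Log2 fold change of the 29 genes (vertical axis) in the 8 comparisons within a tissue (horizontal axis), with red for higher and blue for lower, colour limited to -1 to 1, and a dot where the adjusted p is under 0.05. Hsd17b7 and Abca1 stand out in the injury comparisons of DRG. Most enzymes lie slightly below 0 in the cord comparisons, with medians from -0.16 to -0.08.

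In injured cord most members shifted slightly downward, but few by enough to be called. In WT, 1 of 29 was called (Abca1) against 2.88% of all 18843 genes tested, and in KO 4 of 29 (Abca1 higher, and Lss, Fdps and Npc1l1 lower) against 4.42%. The log2 fold change was below 0 for 17 of the 18 synthesis enzymes in each genotype, with Hsd17b7 the exception in both, and for 53.0% and 53.7% of all genes. The enzymes' median was -0.08 in WT and -0.13 in KO. The WT median was -0.04 without E7, -0.14 without E5 and -0.04 with a score of oligodendrocyte markers as a covariate, where the KO median was -0.09, and 15 to 17 of 18 enzymes stayed below 0 in these fits. Over all 29 genes, 23 were lower in both genotypes, which share no libraries, against 32.2% of all genes. The genes share libraries, so their common direction is a description.

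Lss, the cyclase that makes lanosterol, had 89.8, 73.8, 85.9, 74.4 and 86.5 CPM in naive and 72.7, 62.8, 65.0 and 63.7 in SNI KO cord (-0.31 ± 0.067, adjusted p = 0.00604), without overlap. An antisense gene overlaps Lss, and whether the counting used strand was not given in the sources used here. Fdps went from 81.8, 83.1, 79.2, 67.2 and 81.8 to 68.0, 66.6, 67.4 and 63.7 CPM (-0.24 ± 0.056, adjusted p = 0.00793), with naive library B8 inside the injured range. Npc1l1 went from 2.85, 2.67, 2.91, 2.47 and 2.14 to 1.501, 2.002, 1.81 and 1.93 CPM (-0.52 ± 0.145, adjusted p = 0.0368). Its call was lost under 9 of 15 alternatives, DESeq2 among them. In WT cord the same 3 genes had log2 fold changes of -0.10, -0.09 and 0.02, and none was called.

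In KO cord 5 of 18 enzymes and 2 of 5 regulators were lower when naive, and 4 enzymes and 0 regulators after injury, and DRG held few calls. For any gene compared between KO and WT, an effect of the deletion and one of linked sequence cannot be told apart. In naive cord 10 of 29 genes differed by genotype against 19.7% of all genes: 8 were lower in KO (Cyp51, Mvk, Srebf2, Insig1, Nsdhl, Dhcr7, Sqle, Npc2), against 9.94% of all genes called lower, and 2 were higher (Npc1l1, Abca1). In SNI cord 4 of 29 were called against 6.26%, all lower in KO (Cyp51, Mvk, Nsdhl, Dhcr7), against 3.31% of all genes called lower. These 4 were also among the 8 of naive cord. The log2 fold change was below 0 for 15 of 18 enzymes in naive cord (median -0.11) and for all 18 in SNI cord (median -0.16), where 51.3% and 50.9% of all genes were below 0. Under DESeq2, RLE scaling and limma on the normalised table the number was 15, 15 and 17 in naive cord and 18 each in SNI cord.

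Cyp51 (chromosome 5, 4081145 to 4104746, minus strand) differed most among the enzymes. Naive cord libraries had 168.6, 182.2, 179.9, 167.9 and 201.1 CPM in WT and 150.6, 146.1, 133.7, 129.3 and 142.3 in KO. SNI libraries had 198.6, 152.6, 160.8 and 169.0 in WT and 133.7, 120.5, 127.2 and 115.2 in KO. Every KO library was below every WT library of its condition, and the KO level was 1.28-fold lower in naive (-0.36 ± 0.067, adjusted p = 0.00131) and 1.37-fold lower in SNI cord (-0.46 ± 0.076, adjusted p = 0.000942). In DRG the naive means were 126.9 ± 9.54 in WT and 113.5 ± 7.17 CPM in KO, not called.

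Mvk had 28.5, 30.3, 27.7, 24.8 and 26.5 CPM in naive WT cord and 21.9, 20.5, 22.5, 21.03 and 23.8 in naive KO cord (-0.33 ± 0.068, adjusted p = 0.0017). In SNI cord it had 30.8, 25.2, 27.4 and 22.4 against 21.7, 20.2, 22.5 and 20.97 CPM (-0.31 ± 0.077, adjusted p = 0.014). The naive groups did not overlap, and in SNI cord F7 of WT lay within the KO range. Nsdhl had 48.1, 51.9, 49.3, 49.0 and 50.8 CPM in naive WT and 44.2, 46.1, 43.8, 40.8 and 46.8 in naive KO cord (-0.17 ± 0.051, adjusted p = 0.0225), and 55.8, 45.1, 47.6 and 48.3 against 44.5, 40.0, 44.7 and 41.9 in SNI cord (-0.20 ± 0.057, adjusted p = 0.0341). Dhcr7, which makes cholesterol from 7-dehydrocholesterol, had 56.6, 62.1, 65.2, 48.0 and 52.6 against 46.4, 46.2, 48.4, 44.3 and 52.1 CPM in naive cord (-0.26 ± 0.084, adjusted p = 0.038), and 63.6, 45.7, 54.5 and 54.8 against 46.2, 42.1, 41.1 and 43.1 in SNI cord (-0.34 ± 0.095, adjusted p = 0.0385). Nsdhl separated the genotypes in both conditions, while the Dhcr7 ranges overlapped in both.

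**Figure D4:**
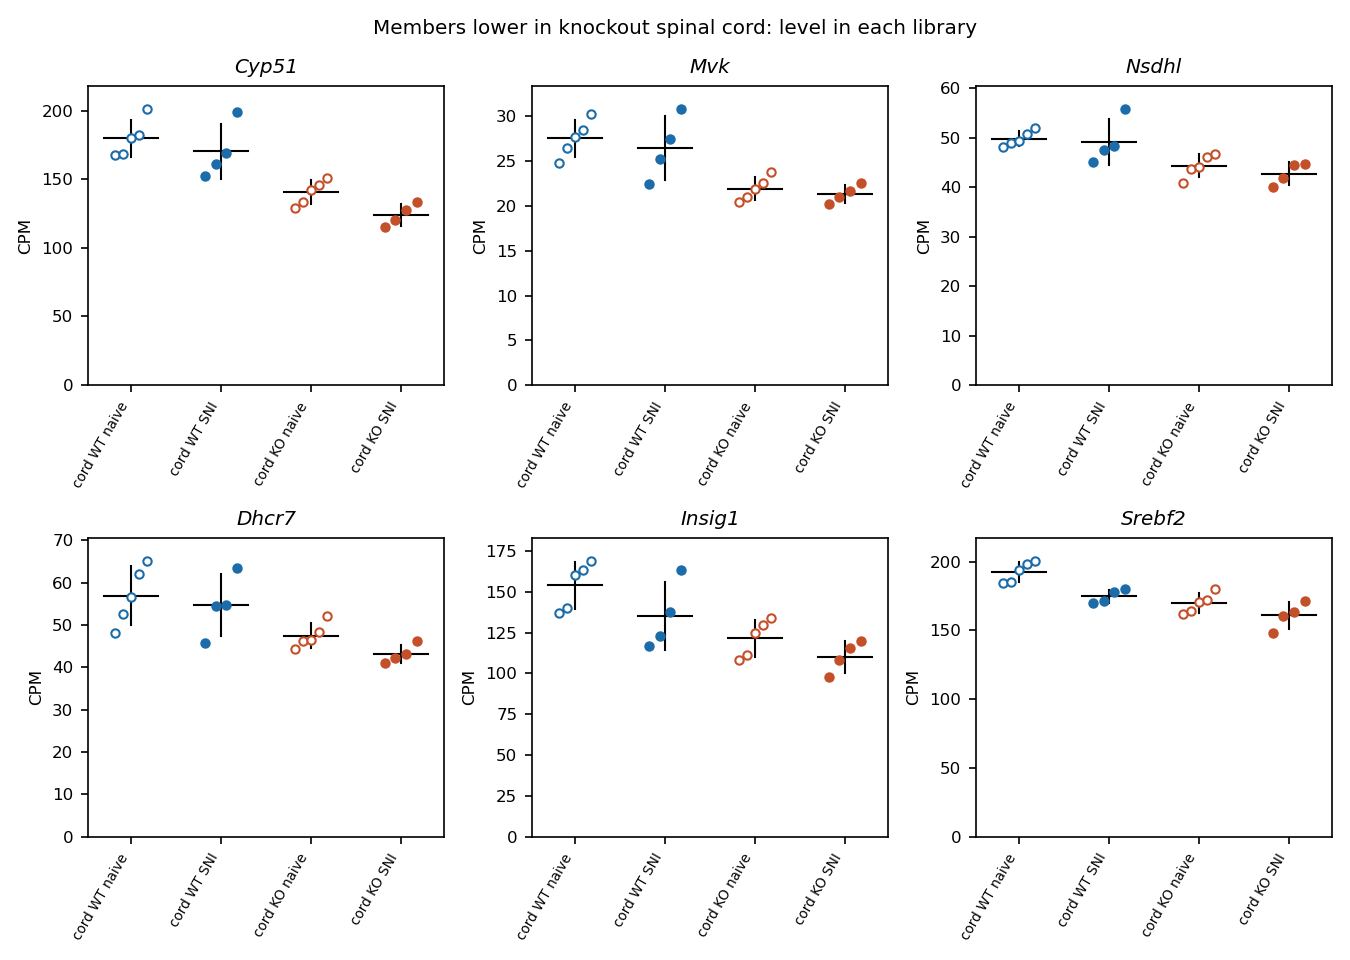
CPM of 6 genes in the 18 cord libraries by group, open points for naive and filled for SNI, blue for WT and orange for KO, with the group mean and 1 SD. All KO points of Cyp51 lie below all WT points of the same condition, from 115.2 to 150.6 CPM against 152.6 to 201.1.

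Of the regulators, Srebf2 and Insig1 were lower in naive KO cord. Srebf2 had 198.1, 200.8, 185.4, 193.7 and 184.3 CPM in WT and 162.1, 170.9, 180.0, 164.4 and 172.3 in KO (-0.18 ± 0.039, adjusted p = 0.0022). Insig1, itself a target of SREBP, had 163.3, 169.2, 160.6, 140.0 and 137.2 against 111.1, 108.1, 133.7, 129.7 and 125.0 CPM (-0.34 ± 0.096, adjusted p = 0.0211). Neither gene overlapped between the naive groups. In SNI cord the values were 174.8 ± 4.91 and 160.9 ± 9.70 for Srebf2 and 135.1 ± 20.7 and 110.1 ± 9.69 CPM for Insig1, not called. Sqle, squalene epoxidase (113.4 ± 6.65 in WT, 101.0 ± 5.95 CPM in KO, adjusted p = 0.041), and Npc2 (118.2 ± 8.25 and 108.6 ± 3.97, adjusted p = 0.0469) were the other 2 lower genes of naive cord. Of these 8 calls, those of Cyp51, Mvk and Srebf2 held under every alternative run. Without 1 library, Npc2 was no longer called when A5, A6, A7, A8, B5, B6, B8, C5 or C6 was left out, Sqle when A5, A6, A7, A8, B6, B8 or C5 was, and Dhcr7 when A5, A6, A7, A8, B5, B6 or B8 was. The same held for Insig1 without A5, A6, A7 or A8 and for Nsdhl without A6, A7 or B8. Insig2, Srebf1 and Scap had log2 fold changes between -0.08 and 0.08 in both conditions.

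The transport genes Npc1l1 and Abca1 were higher in naive KO cord. Npc1l1 had 1.65, 1.83, 1.46, 1.86 and 2.001 CPM in WT and 2.85, 2.67, 2.91, 2.47 and 2.14 in KO (0.56 ± 0.136, adjusted p = 0.00521). Abca1 had 38.5 ± 4.03 CPM in WT and 47.6 ± 2.50 in KO (0.30 ± 0.075, adjusted p = 0.00735), with WT library A5 inside the KO range, and in SNI cord 64.2 ± 5.67 and 76.3 ± 7.90 CPM without overlap (0.25, adjusted p = 0.0703).

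Markers of other cells were read beside these cord values. Of the oligodendrocyte markers, which name the myelin-forming cells, 3 of 10 were lower in naive KO cord and 1 of 10 in SNI KO cord, with median log2 fold changes of -0.08 and -0.10. They (10 of 10 above 0) summed to 25290 to 27540 CPM in naive WT, 22440 to 26460 in naive KO, 24110 to 29460 in SNI WT and 23160 to 24700 in SNI KO cord, with E5 the highest, and these ranges overlapped. In naive KO cord 4 of 5 blood markers were lower (median -1.06), with sums of 137.2 to 172.2 against 170.3 to 482.5 CPM. Of 9 macrophage and microglia markers tested there, 3 were lower, with sums over the 10 in the list of 160.9 to 194.7 against 194.9 to 228.1 CPM. Schwann cell markers, 1 of 8 lower, summed to 425 to 993.9 against 676.7 to 1295 CPM. No marker of these 3 lists was at 0 throughout a cord group, and their part in the cord values was not tested. With a score of the oligodendrocyte markers as a covariate, 6 of 29 members were called in naive cord and 1, Cyp51, in SNI cord, with 11 and 15 of 18 enzymes below 0 and medians of -0.07 and -0.08. The median marker sums were lower in KO, at 25210 against 27310 CPM in naive and 23550 against 25920 in SNI cord. These fits therefore cannot fully tell oligodendrocyte content and genotype apart. Without E5, 1 member was called in SNI cord, 16 of 18 enzymes were below 0, and their median was -0.10. Without E8, 1 was called and 18 were below 0. The share of all genes called in these fits is not given here.

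**Figure D5:**
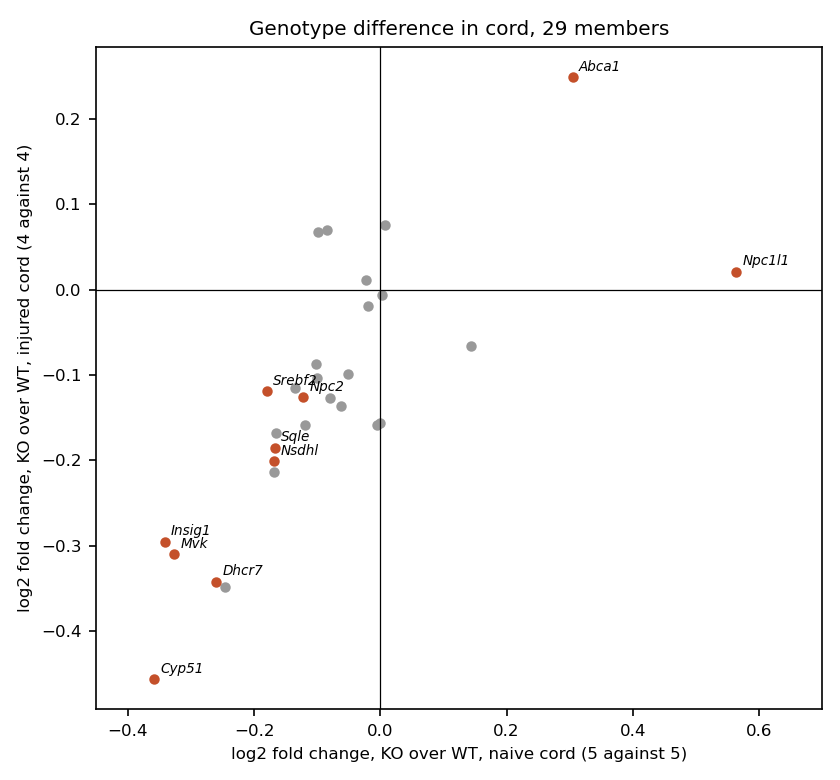
Log2 fold change of KO over WT in naive cord (horizontal axis) against SNI cord (vertical axis) for the 29 genes, orange and named where called in either. The groups of the 2 axes share no libraries; 20 genes lie below 0 on both axes, with Cyp51 lowest at -0.36 and -0.46, and Npc1l1 is at 0.56 and 0.02.

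In DRG the genotypes differed in 2 members when naive (28.2% of all genes called) and in 1 after injury (5.1%). Abcg1 had 35.2, 35.7, 44.8, 44.6 and 23.6 CPM in naive WT and 55.5, 45.03, 48.9, 49.8 and 49.2 in naive KO libraries (0.44 ± 0.146, adjusted p = 0.0348), with C1 lowest. Scap had 41.1, 35.96, 46.9, 44.0 and 35.5 against 57.7, 45.1, 51.0, 54.4 and 51.9 CPM (0.35 ± 0.098, adjusted p = 0.0152), with B1 of WT inside the KO range. Between the naive genotypes, the blood marker sums given above ran opposite to both genes and did not overlap. With a blood score as a covariate neither was called, and their log2 fold changes were -0.008 for Abcg1 and 0.07 for Scap. Because the sums differed by genotype, that fit cannot tell blood content and genotype apart in naive DRG. Neuron, neutrophil and astrocyte marker sums did not overlap between the naive genotypes either. From naive to injured WT DRG the median blood sum went from 1554 to 760.5 CPM, and mean Abcg1 also went down, from 36.8 to 31.6 CPM. Acat2 had 190.0, 147.7, 176.2 and 154.1 CPM in SNI WT and 216.8, 204.2, 208.1 and 198.0 in SNI KO libraries, without overlap (0.31 ± 0.077, adjusted p = 0.0246). It was no longer called without E2, E3, F2 or F3.

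The enzymes lay on different sides in the 2 tissues of the same genotype comparison: after injury 15 of 18 were above 0 in KO DRG (median 0.10) and 0 of 18 in KO cord, where 48.3% and 50.9% of all genes were below 0. The DRG median was 0.06 without F3, and 5 of 18 were below 0 without F4 against 3 with all libraries. In naive DRG 7 of 18 were below 0, and 17 with the blood score as a covariate, which cannot be told apart from genotype there. The difference between tissues was not tested. Over the 10 comparisons within a tissue 20 of the 29 genes were called at least once, as were 60.7% of the 17850 genes tested in both tissues. The other 9 were Hmgcs1, Pmvk, Mvd and Idi1 of the mevalonate steps, Fdft1 (squalene synthase), Tm7sf2 and Sc5d of the sterol steps, the regulator Srebf1 and the lysosomal transporter Npc1. Their group means spanned 777.6 to 880.8 CPM for Hmgcs1 in DRG and 538.9 to 630.0 in cord, and 19.7 to 41.3 CPM for Mvd over all groups.

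Neighbouring pathway genes were read from 6 further lists. Of 12 genes for SREBP processing and sterol sensing, 3 rose in injured WT DRG and 2 in injured KO DRG, and none fell, where 12.6% of all genes rose and 12.3% fell in WT and 15.1% and 13.3% in KO. Erlin1, a sterol-sensing protein of the endoplasmic reticulum, went from 24.7 to 32.4 CPM in WT (0.39 ± 0.059, adjusted p = 6.54e-05) and from 23.6 to 30.7 in KO (0.38 ± 0.060, adjusted p = 8.18e-05). Erlin2 rose in both as well. In KO against WT the list's largest value was that of Vcp, an ATPase that extracts proteins from the endoplasmic reticulum, at 770 against 242 CPM in naive DRG (1.67 ± 0.123) and 369 against 167 in naive cord (1.14 ± 0.042).

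Among 16 genes of fatty acid synthesis, 4 fell and 0 rose in injured WT DRG (12.3% of all genes fell), and 6 fell and 0 rose in KO DRG (13.3%). Thrsp, a lipogenic gene, went from 19.9 to 11.6 CPM in WT (-0.78 ± 0.113, adjusted p = 4.05e-05), and Pnpla3, a lipase gene, from 11.3 to 5.51 (-1.03 ± 0.114, adjusted p = 1.81e-06). In naive KO cord 6 of the 16 were lower and 1 higher, against 9.94% and 9.79% of all genes. The desaturase Scd1 was at 623 against 710 CPM (-0.19 ± 0.035, adjusted p = 0.000634) and Scd2 at 3000 against 3400 (-0.18 ± 0.035, adjusted p = 0.000734). Scd1 was lower in SNI KO cord also, at 645 against 739 CPM (-0.20 ± 0.040, adjusted p = 0.00264). In naive KO DRG the direction was the other: 5 of the 16 were higher and 0 lower, against 12.8% and 15.4% of all genes. Scd1 was higher there, at 1010 against 841 CPM (0.26 ± 0.079, adjusted p = 0.0223). In SNI DRG 0 of the 16 differed by genotype.

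Of 15 LXR and efflux genes, 2 rose and 1 fell in injured DRG of each genotype (24.9% of all genes called in WT, 28.5% in KO), namely the phospholipid transfer protein Pltp and the lipoprotein receptor ligase Mylip upward and Abca5 downward. In WT, Pltp went from 26.3 to 38.8 CPM (0.56 ± 0.148) and Mylip from 16.3 to 21.3 (0.38 ± 0.079). Of 12 genes for sterol esters, oxysterols and lysosome, 3 rose in WT and 4 in KO DRG after injury, with 0 and 1 falling, against 24.9% and 28.5% of all genes called. Hsd3b7, a bile acid and oxysterol enzyme, went from means of 13.5 to 22.8 CPM in KO (0.75 ± 0.071, adjusted p = 2.33e-07), and Ch25h, which makes 25-hydroxycholesterol, reached 2.43 CPM in injured WT (1.14 ± 0.258, adjusted p = 0.00275) and 1.16 in injured KO DRG. Ch25h was lower in KO DRG at 0.479 against 1.1 CPM when naive (-1.18 ± 0.291) and 1.16 against 2.43 after injury (-1.06 ± 0.276). At such low CPM counting error is a larger share of the value. In naive KO DRG 7 of 10 macrophage and microglia markers were also lower, against 15.4% of all genes, and their part was not tested.

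Of 17 genes for sterol transfer and lipoprotein uptake, 2 rose and 2 fell in injured WT DRG and 4 and 4 in KO, against 24.9% and 28.5% of all genes called. Gramd1a, which carries cholesterol from the plasma membrane, reached 114 CPM in WT (0.48 ± 0.047, adjusted p = 3.38e-07) and 116 in KO (0.48 ± 0.047, adjusted p = 3.29e-07). Of 16 genes of isoprenoid branches and other sterol enzymes, 3 fell and 0 rose in injured DRG of each genotype (12.3% of all genes fell in WT, 13.3% in KO), among them Acat1, the mitochondrial thiolase, at 102 against 121 CPM in WT (-0.25 ± 0.043, adjusted p = 0.000199). That list also holds Tmem97, a sterol-binding protein, which was lower in KO DRG at 10.6 against 12.7 CPM when naive (-0.26 ± 0.055, adjusted p = 0.00335) and 9.58 against 11.8 after injury (-0.30 ± 0.062, adjusted p = 0.0066).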

How the data were processed

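RNA of DRG and dorsal spinal cord was sequenced in 36 libraries from stranded poly(A) kits, per the labels' protocols. Per the submitters' processing notes, the tools were HISAT2, RSEM and FastQC 0.11.5, on build GRCm38. Other versions are not given in the sources used here. For 55487 genes, the authors deposited expected counts (reads estimated by RSEM) in a raw table. The E1 column of that deposited table had the unit other, since 9150 cells held decimal commas, read here as points, and 1 lost cell was restored from the normalised table. A second deposited table held signal values, the counts scaled per library by the authors, and served only the limma alternative and the repair of E1.

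Members and lists were chosen with earlier results of these data known. Genes were matched by Ensembl ID to GENCODE M21 names. Counts were rounded and each tissue was fitted alone (18 libraries, 4 groups, 14 residual degrees of freedom) with edgeR 4.0.16 in R 4.3.3: TMM factors, filterByExpr and robust quasi-likelihood F tests, with Benjamini-Hochberg adjustment over all 19496 (DRG) or 18843 (cord) genes. DRG and cord were compared in a joint fit of all 36 libraries, naive and injured, over 20626 genes (28 residual degrees of freedom). Only the naive groups were contrasted in that fit. Standard errors were derived from the F statistic. Members called within a tissue are described library by library, at most 8 a comparison by lowest adjusted p, and up to 3 called genes per further list were eligible to be named. Values per kb used 1 transcript length per gene. The edgeR steps were tested on simulated counts for the contrast of SNI against naive in WT DRG only. Alternatives were DESeq2 1.42.0, RLE factors, no filter, only the compared groups, limma 3.58.1 on log2(value + 0.5), omission of A2 and A4, and omission of each library. A blood score or an oligodendrocyte score as a covariate, and omission of C1 and F3, were chosen after seeing the data. The level of the deleted gene is not reported here.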

Additional observations from a re-analysis of the deposited data

Results flagged for a closer look

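Among 160 sets of 4 or 5 libraries (20 members called within a tissue, in 8 groups), 8 held 1 library far from the others by Dixon's criterion, and chance gives about 1 in 20. In DRG, Acat2 was high in A2 of naive KO (198.3 CPM, next 178.6), Stard4 high in C1 of naive WT (113.2, next 102.4), Npc1l1 high in E3 of SNI WT (1.346, next 1.179) and Msmo1 low in F2 of SNI KO (219.4, next 227.5). In cord, Fdps was low in B8 of naive KO (67.19 CPM, next 79.23), Hsd17b7 high in E6 of SNI KO (48.94, next 37.51), Msmo1 high in E5 of SNI WT (182.2, next 147.4) and Npc2 high in A7 of naive WT (133.0, next 114.9).

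After injury, 2 enzymes had every KO library above every WT library in DRG and every KO library below every WT library in cord. Fdps had a log2 fold change of 0.099 in DRG (adjusted p = 0.262) and -0.156 in cord (adjusted p = 0.121), and Nsdhl 0.085 (adjusted p = 0.306) and -0.201 (adjusted p = 0.0341). Only the Nsdhl value in cord was called. Both genes were found by searching the members for such a pattern. The share of all genes that separate this way is not given here, so the pattern need not be particular to the members. The difference between the tissues was not tested for either gene.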

How the results depend on the processing

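Of 91 calls of a member in a comparison, 71 held under every alternative run. The 91 include 25 and 27 calls between the tissues, in WT and KO, where most of all genes were called. Of these only Srebf1 and Abcg1 in KO were lost in any alternative, so the other lost calls were of injury or genotype. No call of KO against WT in DRG held throughout. Stard4 in injured KO DRG lost its call in 6 of 17 alternatives, and Dhcr7 in SNI KO cord in 9 of 14. In injured WT DRG Insig2 lost its call in 7 of 17 and Npc2 in 4 of 17. Of 1464 values under alternatives, those between the tissues included, 1327 kept their call and direction, 136 were no longer called and 1 turned. That was Abcg1 in naive DRG, KO against WT, at -0.008 with the blood score, chosen after seeing the data. Hsd17b7, Abca1, Ebp and Mvk in injured DRG of both genotypes, Abca1 in injured cord of both genotypes, and Cyp51 in KO cord of both conditions kept their calls throughout. The number of members called moved as follows. The share of all genes called under each alternative is not given beside these counts, so a move need not be particular to the members. In WT DRG after injury (8) it was 5 with only the compared groups and 5 to 8 with 1 library left out, lowest without B1 or B3. In naive DRG, KO against WT (2), it was 4 with RLE factors, 1 without the filter, 4 with only the compared groups, 1 without A2 and A4, 4 with limma, 0 with the blood score and 1 to 5 with 1 library left out (1 without A2, A3, C1 or C2, 4 without A4 or B3, 5 without B1). In SNI DRG, KO against WT (1), it was 3 with DESeq2, 0 with only the compared groups, 2 with limma, 0 without C1 and F3, and 0 to 3 with 1 left out (0 without E2, E3, F2 or F3, 2 without E1, 3 without F1). In WT cord after injury (1) it was 2 with DESeq2 and 1 to 5 with 1 left out (2 without A7 or F5, 5 without E5). In naive cord, KO against WT (10), it was 6 with the oligodendrocyte score and 5 to 10 with 1 left out (5 without A6 or A7, 6 without A5 or B8). In SNI cord, KO against WT (4), it was 7 with DESeq2, 1 with the oligodendrocyte score and 1 to 5 with 1 left out (1 without E5 or E8). The cause of these moves was not tested, except that leaving out libraries or groups lowers the degrees of freedom. Column names gave DRG and cord libraries a shared number. It may mark an animal, which the labels do not state. Deviations of same-numbered naive libraries correlated at 0.134 to 0.296 in WT and 0.0471 to 0.244 in KO. The highest correlation with a cord library of another number in the group was 0.0128 to 0.0898 in WT and -0.0351 to 0.128 in KO. For A2 and A6 the shared number gave the lower value, 0.0471 against 0.0925. The replicate block on the shared number gave 25 and 28 members called between the tissues in WT and KO. Npc1l1 had the lowest CPM of the members, at 0.987 to 2.91, where counting error is a larger share of the value.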
